A study of Cicer arietinum with 8 samples.

Results

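The drought response of roots of ICC1882, the drought-sensitive chickpea genotype (DS), was described by setting the FPKM of each gene locus in droughted plants, DS(D), against that in watered plants, DS(C). FPKM is a fragment count divided by transcript length and by the total of mapped fragments. A locus was taken as expressed when its FPKM was at least 1 in DS(D) or in DS(C), which held for 20093 of 30978 loci. Of the 10885 loci left out, 7528 were listed at 0 in both conditions. Just inside the filter, Ca_10643 had 0.346 FPKM in DS(D) and 1.00 in DS(C), and just outside it Ca_02492 had 0.427 FPKM in DS(D) and 0.999 in DS(C). The expressed loci comprised 16649 with 1 gene identifier, 542 with several identifiers and 2902 with none, and the deposited table pairs the identifiers with no gene name.

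The series compared drought with control in this genotype and in ICC4958, the drought-tolerant genotype (DT). By the sample labels, DS(D) and DT(D) are roots of 27-day-old seedlings from which water had been withheld for 11 days, starting at day 16, and DS(C) and DT(C) are roots of watered seedlings of the same age. The study's methods give an earlier start and a longer stress, so the length of the treatment is uncertain. Each of the 4 conditions had 2 libraries from biological replicates, and the labels name no transgene, mutation or added agent in any group. The deposited table holds 1 FPKM value per locus and condition, pooled by the authors over both libraries. The spread between libraries is therefore unknown, no test was possible, and each difference below is between pooled values. The depth behind a value is not in the table either, so low FPKM values carry an unknown counting error. The identity of the tissue was taken from the labels, because no root marker could be recognised among unnamed loci.

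Roots meet a drying soil first. In plants, water deficit is sensed and relayed partly through phosphoinositides, membrane lipids that kinases phosphorylate and that phospholipase C splits into soluble inositol phosphates and diacylglycerol. Glutathione and ascorbate remove the peroxides that build up under stress, and glycolysis supplies carbon and energy while growth slows. DREB proteins, a branch of the AP2/ERF family of transcription factors, bind the dehydration-responsive element in promoters of stress genes.

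Of the genes past a 2-fold difference in the pathway lists described below, 3 had primers in the study's RT-qPCR set. The primer pairs are shown because they mark the transcripts of these genes, in the order forward and then reverse, each from 5′ to 3′. Ca_04504 encodes a DREB protein, Ca_03341 the aldehyde dehydrogenase ALDH11A3, and Ca_10542 a phosphoglycerate mutase-like protein.
Ca_04504 forward: ggtgtgtgaagtgagggaacct
Ca_04504 reverse: cgccatctcgggattagga
Ca_03341 forward: ctgatgcattggttgagaaagtg
Ca_03341 reverse: tcattctcaggtggtccaacac
Ca_10542 forward: gggcttcttcgactccatagtacat
Ca_10542 reverse: cgaccctcatcagagctgtaaa
The FPKM of Ca_04504 was 10.1 in DS(D) and 122 in DS(C), that of Ca_03341 was 13.7 in DS(D) and 44.5 in DS(C), and that of Ca_10542 was 12.6 in DS(D) and 4.14 in DS(C). The DREB gene and ALDH11A3 were thus lower in droughted roots and the phosphoglycerate mutase-like gene was higher.

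Weakly expressed loci tended to have higher FPKM in droughted ICC1882 roots and strongly expressed loci lower FPKM. The log2 ratio of DS(D) to DS(C) was taken without a pseudocount, and a locus was called higher at 1 or more and lower at -1 or less. By this rule 1650 loci (8.21% of the expressed loci) were higher and 1741 (8.66%) were lower. The median over all expressed loci was -0.01, with quartiles at -0.42 and 0.42. The median alone hides a trend with level. When the loci were placed in 10 groups of equal size by their mean log2(FPKM + 1), the median ratio was 0.48 in the lowest group, 0.12 in the fifth and -0.50 in the highest. The typical locus of the lowest group had 1.42 FPKM in DS(D) and 1.09 in DS(C), and that of the highest group 201 in DS(D) and 297 in DS(C). The same loci in ICC4958 had medians between -0.01 and 0.06 in every group. With groups made from DS(D) alone the lowest group had a median of -0.07 and the highest -0.42, and with groups made from DS(C) alone these were 0.85 and -0.59, so the value at the low end depended on the grouping. The part played by the scaling of the libraries, by transcript makeup or by RNA quality in this trend was not tested.

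**Figure D1:**
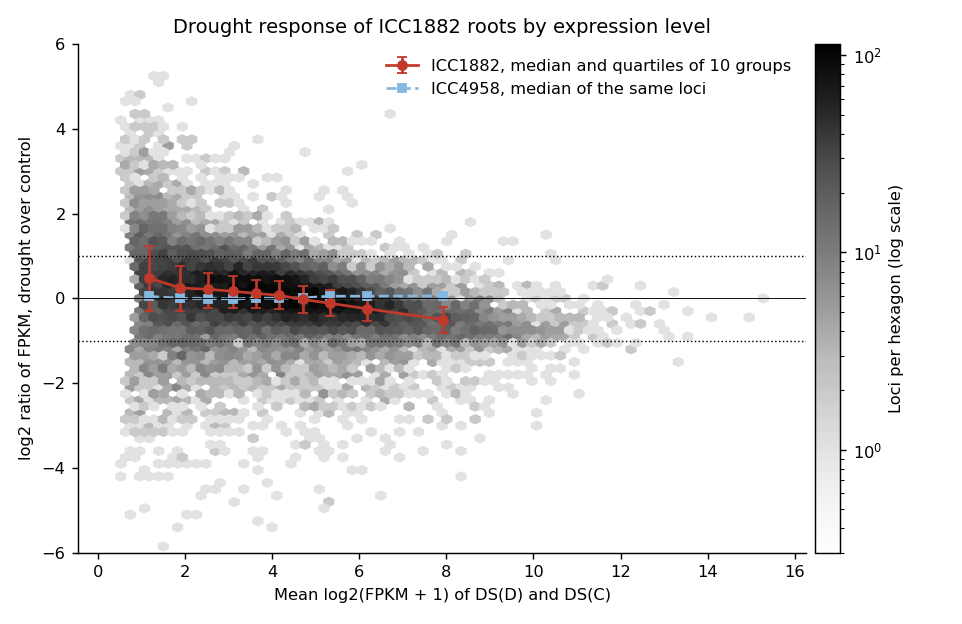
Log2 ratio of FPKM in DS(D) over DS(C) against mean log2(FPKM + 1), with 19912 loci counted in hexagons (log grey scale). The red points and bars are medians and quartiles of 10 groups of ICC1882 loci and run from 0.48 down to -0.50, and the blue squares are the ICC4958 medians of the same loci, between -0.01 and 0.06. The dotted lines mark ratios of 1 and -1. Loci at 0 in 1 condition (167) and 14 loci beyond a ratio of 6 in either direction are not drawn.

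The direction in which loci passed the threshold went with their level. Higher loci made up 32.5% of the lowest group and 0.846% of the highest, whereas lower loci made up 15.1% of the lowest group, 5.23% of the seventh and 15.02% of the highest. The spread of the ratio was also widest at low level, with an interquartile range of 1.54 in the lowest group and between 0.572 and 0.66 in groups 5 to 10. Higher loci were accordingly weak, with a median of 4.38 FPKM in DS(D) and 1.42 in DS(C), while lower loci had medians of 6.67 FPKM in DS(D) and 22.9 in DS(C). To describe loci relative to others of like level, each ratio was also centred on the median of its group. After centring, 1242 loci (6.18%) were higher and 1783 (8.87%) were lower. Of the higher loci, 1144 were called both ways, 506 only before centring and 98 only after it. Of the lower loci, 1466 were called both ways, 275 only before and 317 only after. In the highest group, centring left 3.88% of loci higher and 5.72% lower. These calls include 91 higher and 76 lower loci at 0 in one condition, which have no ratio. Among loci above 0 FPKM in both conditions, 73 were higher and 157 lower at a centred log2 size of 3 or more, and 3 and 20 at 5 or more.

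**Figure D2:**
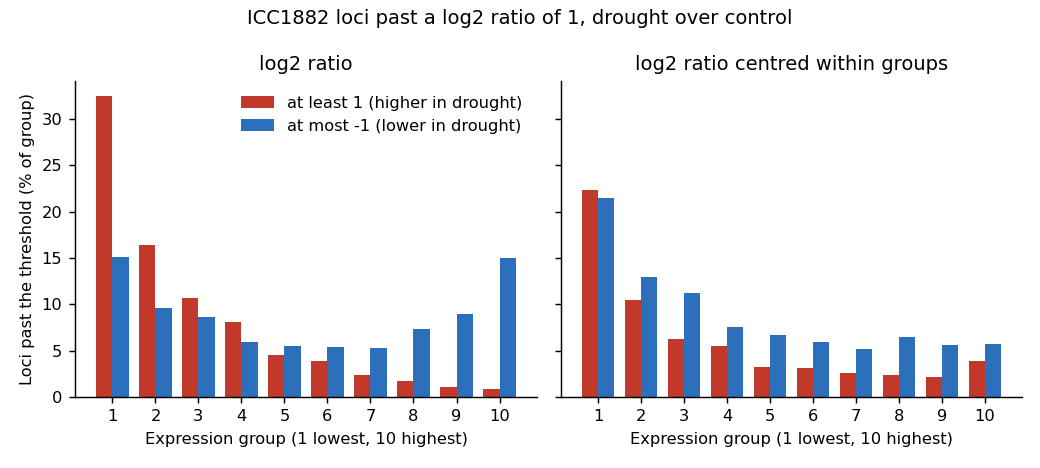
Percent of loci in each of 10 expression groups whose log2 ratio of DS(D) over DS(C) was at least 1 (red) or at most -1 (blue), before centring on the left and after centring within groups on the right. Before centring, the red bars run from 32.5% in the lowest group to 0.846% in the highest, and after centring from 22.4% to 3.88%.

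As deposited, fewer loci had a very high FPKM in droughted than in watered ICC1882 roots, which had the most of the 4 conditions. An FPKM of 1000 or more was reached by 134 loci in DS(D) and 246 in DS(C), of which 126 were the same loci, so 120 passed this level in DS(C) alone and 8 in DS(D) alone. In ICC4958, 171 loci reached it in DT(D) and 170 in DT(C). A count at a fixed FPKM depends on the scale of the columns, and it was not repeated on a common scale. The FPKM summed over expressed ICC1882 loci was 27.6% lower in droughted than in watered plants. The highest of the 10 groups accounted for 90.5% of that difference. That group also held most of the summed FPKM, with 846168 in DS(D) and 1261270 in DS(C). Over all loci the sums were 1204310 in DS(D), 1662840 in DS(C), 1352240 in DT(D) and 1378430 in DT(C). DS(C) was thus the highest of the 4 conditions, and the ICC4958 sum was 1.90% lower in drought. Among the 100 most abundant loci, 93 had lower FPKM in DS(D), with a median log2 ratio of -0.62. The same 100 loci had a median of 0.08 in ICC4958, where 40 were lower in drought. The ICC1882 difference was spread over many loci. The 10 largest decreases in FPKM came to 12.7% of the net difference, the 100 largest to 39.9% and the 1000 largest to 91.0%.

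Bringing the columns to a common scale moved every ICC1882 ratio by a constant. Equal sums added 0.47 to each log2 ratio, equal sums without the 100 most abundant loci added 0.43, and equal 75th percentiles added 0.17, whereas centring on the median added 0.01. The share of higher loci among those past the threshold was 48.7% as deposited, 80.9% with equal sums, 79.3% with equal sums without the 100 most abundant loci and 62.4% with equal 75th percentiles. With equal sums 20.1% of the expressed loci were higher and 4.73% lower. None of these constants removes the trend with level.

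The locus with the largest decrease in FPKM was one without an identifier, XLOC_028145, with 5651 FPKM in DS(D) and 16148 in DS(C). Its log2 ratio of -1.51 stayed below -1 after centring (-1.01). Ca_08236 had 3037 FPKM in DS(D) and 7120 in DS(C), a ratio of -1.23 that was -0.73 after centring. Ca_13501 had 8716 FPKM in DS(D) and 16683 in DS(C), a ratio of -0.94 that was -0.44 after centring. Part of each difference was thus shared by the group as a whole. A 2-identifier locus, Ca_21944 with Ca_21945, had the highest values of these, 25340 FPKM in DS(D) and 34965 in DS(C). Its ratio of -0.46 became 0.04 after centring. The largest increase in FPKM was that of Ca_14546, with 2146 FPKM in DS(D) and 771 in DS(C), a ratio of 1.48 that was 1.98 after centring. This ran against the trend of its group, whose median ratio in ICC1882 was -0.50. Ca_14546 was also higher in ICC4958, with 1545 FPKM in DT(D) and 761 in DT(C), where the loci of that group had a median of 0.06.

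The loci that differed most for their level were taken among 10877 loci with 1 identifier, at least 1 FPKM in both conditions and at least 10 FPKM in the higher one. The 10 with the largest centred ratios had 11.4 to 139 FPKM in DS(D) and 1.22 to 18.6 in DS(C). Ca_01862 led them, with 139 FPKM in DS(D) and 18.6 in DS(C), and its log2 ratio of 2.91 was 3.15 after centring. It was higher in ICC4958 as well, at 121 FPKM in DT(D) and 37.97 in DT(C). Ca_14665 was at a low level in both controls, with 12.1 FPKM in DS(D) and 1.22 in DS(C), beside 8.79 in DT(D) and 0.655 in DT(C). These were the only 2 of the 10 past the threshold in ICC4958. The other 8 differed in form. Ca_17382 had 23.6 FPKM in DS(D) and 3.08 in DS(C), beside 21.2 in DT(D) and 18.9 in DT(C), so its value in DS(C) was the one that stood apart from the other 3 conditions. Ca_27315 had the same form, with 23.8 FPKM in DS(D), 3.06 in DS(C), 14.95 in DT(D) and 20.97 in DT(C), and Ca_26635 too, with 16.5 FPKM in DS(D), 2.07 in DS(C), 12.4 in DT(D) and 13.8 in DT(C). In Ca_27284 and Ca_24205 it was instead the DS(D) value that stood apart. Ca_27284 had 14.2 FPKM in DS(D), 2.09 in DS(C), 3.67 in DT(D) and 1.94 in DT(C). Ca_24205 had 15.6 in DS(D), 2.02 in DS(C), 5.84 in DT(D) and 4.13 in DT(C). Ca_27403 had 85.5 FPKM in DS(D), 15.2 in DS(C), 51.1 in DT(D) and 44.7 in DT(C). Ca_21338, an identifier listed on 2 loci, had 11.4 in DS(D), 1.79 in DS(C), 12.0 in DT(D) and 7.36 in DT(C). Ca_21014 had 16.6 in DS(D), 2.29 in DS(C), 11.4 in DT(D) and 6.13 in DT(C). In Ca_27403, Ca_21338 and Ca_21014 DS(C) was the lowest of the 4 conditions.

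The lower end reached further. The 10 loci with the smallest centred ratios had log2 ratios between -7.77 and -4.42, and each had under 7 FPKM in DS(D). Ca_08213 had 3.70 FPKM in DS(D) and 809 in DS(C), and Ca_13360 had 2.60 in DS(D) and 413 in DS(C). In ICC4958 they had 18.8 FPKM in DT(D) and 40.6 in DT(C), and 9.63 in DT(D) and 24.1 in DT(C). Both were therefore far more abundant in watered ICC1882 roots than in any other condition. Ca_06646 was listed on 2 loci and both were among the 10, one with 6.80 FPKM in DS(D) and 713 in DS(C), the other with 1.47 in DS(D) and 55.6 in DS(C). How reads were shared between these 2 loci is not known, so their values are not independent. Ca_01683 and Ca_06446 were strongly lower in both genotypes. Ca_01683 had 1.16 FPKM in DS(D) and 34.2 in DS(C), beside 2.96 in DT(D) and 77.6 in DT(C), and Ca_06446 had 6.48 in DS(D) and 178 in DS(C), beside 15.9 in DT(D) and 239 in DT(C). In ICC4958, 9 of the 10 were past the threshold in the same direction. Ca_21000 was past it the other way, with 1.75 FPKM in DS(D) and 37.4 in DS(C), beside 26.1 in DT(D) and 6.75 in DT(C). The 4 rescalings of the columns add at most 0.47 to a ratio, too little to bring any of these 20 loci within the threshold.

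**Figure D3:**
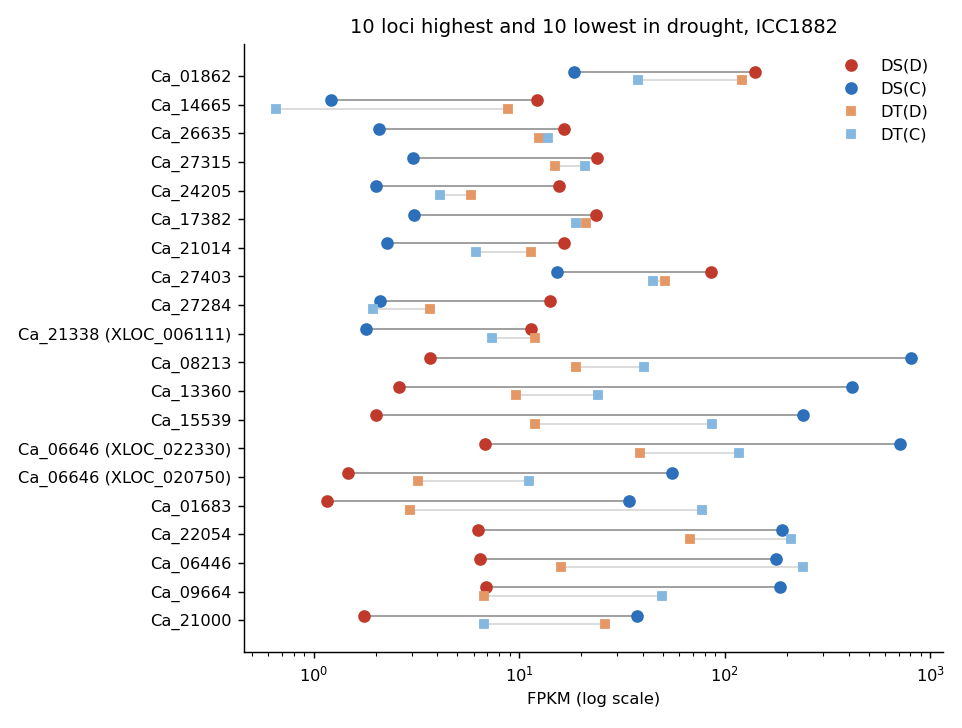
FPKM (log axis) of the 10 loci with the largest and the 10 with the smallest centred ratio in ICC1882. Circles are DS(D) (red) and DS(C) (blue), squares are DT(D) (orange) and DT(C) (light blue), and each point is 1 pooled value. The lower 10 have under 7 FPKM in DS(D), and Ca_21000 at the bottom runs in opposite directions in the 2 genotypes.

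A further 167 loci were listed at 0 in one condition and have no ratio. Of these, 91 were at 0 in DS(C), with a median of 1.98 FPKM in DS(D), and 76 were at 0 in DS(D), with a median of 1.82 FPKM in DS(C). Most were thus close to the filter, and FPKM reached 5 in the other condition for 17 and 11 of them. Among loci with 1 identifier, Ca_25615 had 18.1 FPKM in DS(D) and was listed at 0 in DS(C), and Ca_27296 had 14.6 FPKM in DS(D) and was listed at 0 in DS(C). Both were expressed in ICC4958, with 9.61 FPKM in DT(D) and 9.96 in DT(C) for Ca_25615, and 7.61 in DT(D) and 17.8 in DT(C) for Ca_27296. In the other direction, Ca_19561 was listed at 0 in DS(D) and had 154 FPKM in DS(C), and it was at 0 in both ICC4958 conditions. Ca_20658 was at 0 in DS(D) with 43.4 FPKM in DS(C), beside 2.03 in DT(D) and 11.2 in DT(C). An exact 0 in such a table can be a failed estimate, so these are listed values only.

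The genes with names come from 4 lists that the study assembled on these same samples, namely phosphatidylinositol (PI) signaling, glutathione metabolism, glycolysis/gluconeogenesis and the QTL-hotspot, a drought-linked genome region, together with 4 further genes of its RT-qPCR set. Their direction is therefore no independent evidence. Of 114 listed genes 108 were expressed, of which 3 were higher and 9 lower, beside 8.21% and 8.66% of all expressed loci. After centring, 3 were higher and 8 lower, beside 6.18% and 8.87%. As deposited, 5.88% of the expressed PI signaling genes were higher, 8.33% in glutathione metabolism, and none in glycolysis or the QTL-hotspot. None of the PI signaling genes was lower, against 8.33% in glutathione metabolism, 6.98% in glycolysis and 20% in the QTL-hotspot. The 4 RT-qPCR genes without a name in these lists were all within the threshold, with ratios between -0.76 and 0.29.

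The PI kinases had higher FPKM in droughted than in watered ICC1882 roots, though each by less than 2-fold. In each of them the DS(C) value was the lowest of the 4 conditions. All 17 genes of the PI signaling list were expressed, 1 was higher and none was lower, with a median ratio of 0.32 (0.35 after centring, against 0 over all expressed loci). The list's inositol polyphosphate kinase (Ca_22801), counted with the next group of genes, had a ratio of -0.78. The 7 kinases that add phosphate to the inositol ring of membrane lipids all had ratios above 0, from 0.42 to 0.96. Their median was 0.71 as deposited and 0.54 after centring, beside 0.13 in ICC4958. With equal sums, which add 0.47 to every ratio, 6 of the 7 passed the threshold, beside 20.1% of all expressed loci, and their median was 1.18 beside 0.46 over all. All 7 stayed above 0 after centring. The rescalings only add to each ratio, so they could not have changed the sign of these 7. The largest ratio was that of Ca_16741, a phosphatidylinositol-4-phosphate 5-kinase, which makes the substrate of phospholipase C. It had 35.0 FPKM in DS(D) and 17.9 in DS(C), beside 30.4 in DT(D) and 29.2 in DT(C). Vps34 (Ca_21468), which makes the phosphatidylinositol 3-phosphate of endosomes and vacuoles, had 17.2 FPKM in DS(D) and 10.2 in DS(C), and the FAB1-type kinase Ca_04329, which phosphorylates that lipid further, had 7.91 in DS(D) and 4.83 in DS(C). These ratios, 0.75 and 0.71, lay within the threshold.

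A further 8 genes of the list comprise phospholipases C, phosphatases of inositol phosphates and phosphoinositides, an inositol polyphosphate kinase and diacylglycerol kinases. Of these 8 genes, 6 were below 0 and 2 above, with a median of -0.49, and none was past the threshold. The 2 above 0 were the phosphoinositide phosphatase Ca_10733 with a ratio of 0.32 and PLC2 (Ca_12484) with 0.25. With equal sums they split 4 and 4, and after centring 5 were below 0 and 3 above, so their direction depended on the scaling. IMPase (Ca_00700), which releases free inositol, was the most abundant of them at 247 FPKM in DS(D) and 415 in DS(C). IPK2 beta (Ca_22801), an inositol polyphosphate kinase, had 4.92 FPKM in DS(D) and 8.44 in DS(C). The neighbouring identifiers Ca_12485 and Ca_12484 both encode phospholipase C. Ca_12485 had 0.879 FPKM in DS(D) and 1.59 in DS(C), a ratio of -0.86 that was -1.33 after centring, while PLC2 had 43.4 FPKM in DS(D) and 36.6 in DS(C). The values of Ca_12485 lie near the filter. The 1 gene of the list past the threshold was the phosphoglycerate mutase-like Ca_10542, whose primers are given above, with a ratio of 1.60 (1.44 after centring). In ICC4958 it had 10.4 FPKM in DT(D) and 8.43 in DT(C).

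In glutathione metabolism, 1 of 3 genes for glucose-6-phosphate dehydrogenase had the highest ratio and a glutathione-degrading enzyme was among the lowest. Of 27 listed genes 24 were expressed, 2 were higher and 2 lower, and the median ratio was 0.06. This dehydrogenase opens the oxidative pentose phosphate route and yields NADPH, which is needed to recycle glutathione. G6PDH2 (Ca_18820) had 75.3 FPKM in DS(D) and 30.4 in DS(C), a ratio of 1.31 (1.42 after centring). In ICC4958 it had 45.0 FPKM in DT(D) and 41.3 in DT(C). The most abundant gene for the same enzyme, Ca_14672, had 284 FPKM in DS(D) and 339 in DS(C), a ratio of -0.26, and the weakest, G6PDH1 (Ca_10123), had 4.12 in DS(D) and 2.76 in DS(C), a ratio of 0.58. The enzyme's genes thus differed in sign, and the other 3 NADPH-supplying genes had ratios from -0.49 to -0.05. GGT1 (Ca_12669), a gamma-glutamyl transpeptidase, which takes the glutamyl group off glutathione, had 11.6 FPKM in DS(D) and 27.7 in DS(C), a ratio of -1.26. Its relative GGT4 (Ca_15517) had 11.5 FPKM in DS(D) and 6.15 in DS(C), a ratio of 0.90 that did not reach the threshold.

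The tau glutathione S-transferases, which join glutathione to reactive compounds, differed among themselves. GSTU20 (Ca_23113) was lower, with 1.33 FPKM in DS(D) and 4.49 in DS(C), and GSTU19 (Ca_14389) was higher, with 1.31 in DS(D) and 0.574 in DS(C). Both are near the filter, and GSTU19 was within the threshold after centring (0.71). The abundant member, GSTU8 (Ca_08326), had 359.6 FPKM in DS(D) and 361 in DS(C). Because most loci of that level were lower in DS(D), its centred ratio was 0.49. The same shift applied to dehydroascorbate reductase (Ca_18637), which regenerates ascorbate with glutathione, at 1244 FPKM in DS(D) and 1070 in DS(C), with a ratio of 0.22 and a centred ratio of 0.72. As deposited 12 of the 24 genes were above 0, and after centring 19 were, with a median of 0.30. The 5 expressed peroxide-scavenging genes, peroxidases of the ascorbate and glutathione types, all stayed within the threshold, from -0.50 to 0.37. GSTU25 and CysPrx1 did not reach 1 FPKM, and glutathione-disulfide reductase (Ca_24310) was listed at 0 in all 4 conditions.

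Most glycolysis genes had lower FPKM in droughted ICC1882 roots, and centring on loci of like level brought their median close to 0. Of 44 listed genes 43 were expressed, none was higher and 3 were lower, and 31 had ratios below 0. With equal sums 5 were higher and 2 lower, beside 20.1% and 4.73% of all expressed loci, and 22 had ratios below 0. The median was -0.47 as deposited, -0.071 after centring and -0.0072 with equal sums, beside 0.08 in ICC4958. From triose to pyruvate all 11 expressed genes were below 0, with a median of -0.58. After centring 8 of the 11 were below 0 and the median was -0.20, and with equal sums 9 were. Enolase (Ca_00761), which makes phosphoenolpyruvate, had 1733 FPKM in DS(D) and 2873 in DS(C). Phosphoglycerate kinase (Ca_22673), the first ATP-yielding enzyme of the route, had 555 FPKM in DS(D) and 903 in DS(C). Of this step only pyruvate kinase Ca_12631 passed the threshold, with 165 FPKM in DS(D) and 348.5 in DS(C), a ratio of -1.08 that was -0.57 after centring.

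From hexose to triose the genes had both signs. Of 16 genes 6 were above 0 and 10 below, with none past the threshold, and after centring 8 stood on each side. The abundant aldolase Ca_27205, which cleaves fructose 1,6-bisphosphate, had 1513 FPKM in DS(D) and 2876 in DS(C). The weaker aldolases FBA1 (Ca_15425) and FBA2 (Ca_15426) ran the other way, with 21.6 FPKM in DS(D) and 12.9 in DS(C) for FBA1 and 24.4 in DS(D) and 14.9 in DS(C) for FBA2. Their identifiers are consecutive and their values alike, so reads may have been split between them. The weaker genes were not all above 0, nor the stronger ones all below. Fructose 1,6-bisphosphatase (Ca_00102), which works in the gluconeogenic direction, had 13.2 FPKM in DS(D) and 16.5 in DS(C), a ratio of -0.32. Glucose-6-phosphate isomerase (Ca_10559) had 83.1 in DS(D) and 79.7 in DS(C), a ratio of only 0.06. Phosphofructokinase, which commits sugar to glycolysis, showed both signs, from -0.93 (Ca_00673) to 0.92 (PFK2, Ca_18157).

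The clearest differences of this list lay in fermentation and aldehyde oxidation. PDC2 (Ca_00374), a pyruvate decarboxylase, which turns pyruvate to acetaldehyde, had 108 FPKM in DS(D) and 374 in DS(C), a ratio of -1.79 that was -1.29 after centring. ALDH11A3 (Ca_03341), in Arabidopsis a glyceraldehyde-3-phosphate dehydrogenase that makes NADPH, had a ratio of -1.70 (-1.68 after centring). The rescalings add at most 0.47 to a ratio, too little to bring either of these 2 within the threshold. In ICC4958, PDC2 had 159 FPKM in DT(D) and 178 in DT(C), and ALDH11A3 had 9.82 in DT(D) and 23.4 in DT(C). ALDH7B4 (Ca_22351), an aldehyde dehydrogenase induced by water deficit in Arabidopsis, had 95.8 FPKM in DS(D) and 54.4 in DS(C). Its ratio of 0.82 did not reach the threshold as deposited and was 1.06 after centring. The 6 genes of the pyruvate dehydrogenase complex, which feeds the citric acid cycle, ran from -0.74 to 0.23.

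**Figure D4:**
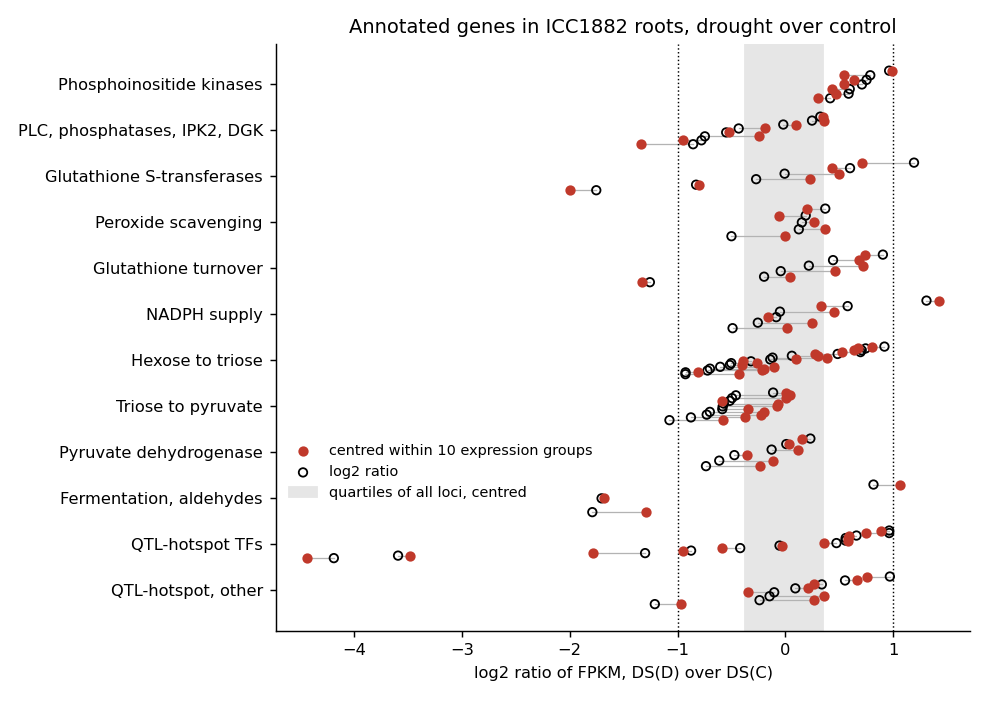
Log2 ratio of DS(D) over DS(C) for the expressed genes of the 4 pathway lists, by role. Open circles are ratios as deposited, red points are ratios centred within 10 expression groups, each gene's pair is joined, and the grey band runs between the quartiles of all expressed loci after centring (-0.38 to 0.35). The 7 phosphoinositide kinases lie between 0.30 and 0.99 after centring, and 2 transcription factors lie below -3.

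In the QTL-hotspot, 2 transcription factor genes with consecutive identifiers had the lowest ratios of all listed genes. Of 22 listed genes 20 were expressed, with a median of 0.02 as deposited and 0.26 after centring. None was higher and 4 (20%) were lower, beside 8.21% and 8.66% of all expressed loci. After centring none was higher and 3 were lower, beside 6.18% and 8.87% of all expressed loci. With equal sums 7 of the 20 were higher and 2 lower, beside 20.1% and 4.73% of all expressed loci. The balance of higher and lower calls thus depended on the scaling. The DREB gene Ca_04504, whose primers are shown above, had 10.1 FPKM in DS(D) and 122 in DS(C), a ratio of -3.59 (-3.48 after centring). Its neighbour by identifier, the AP2-EREBP gene Ca_04503, had 0.297 FPKM in DS(D) and 5.41 in DS(C), a ratio of -4.19 that rests on a low value. Both were lower in ICC4958 too, where Ca_04504 had 17.7 FPKM in DT(D) and 350.2 in DT(C) and Ca_04503 had 0.780 in DT(D) and 12.7 in DT(C). A further AP2-EREBP gene, Ca_04370, had 12.4 FPKM in DS(D) and 22.7 in DS(C), a ratio of -0.87.

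The MYB gene Ca_04621, of a large family of plant transcription factors, was lower in ICC1882 at a low level, with 0.770 FPKM in DS(D) and 1.90 in DS(C). It had 2.34 in DT(D) and 1.39 in DT(C), and the difference between the genotypes was not tested. Carboxylesterase 20 (Ca_04524), an ester-cleaving enzyme, had 57.4 FPKM in DS(D) and 133 in DS(C), a ratio of -1.21 that was -0.97 after centring, beside 73.8 in DT(D) and 73.6 in DT(C). Of the 12 transcription factors 6 were above 0, led by the Trihelix gene Ca_04385 with 20.4 FPKM in DS(D) and 10.4 in DS(C) and the SNF2 gene Ca_04622 with 6.19 in DS(D) and 3.17 in DS(C), both at a ratio of 0.96. SufD/PNT and the cytochrome P450 gene did not reach 1 FPKM.

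Calls in the same direction were also counted over loci with consecutive identifiers. Identifier order stands for position here only as far as the annotation numbered genes along the genome, which was not examined, since no annotation carrying these identifiers was used. Over 11394 pairs of consecutive identifiers, the second was lower in 12.8% of pairs whose first was lower, beside 7.76% of loci with 1 unshared identifier, and higher in 61 of 610 pairs whose first was higher, beside 6.01% of those loci. After centring these were 11.7% beside 7.74% and 8.67% beside 4.18%. Runs of at least 3 consecutive centred calls numbered 2 on the higher side, with 6 loci, and 12 on the lower side, with 38 loci. Lower calls were also the more frequent, at 7.74% of loci with 1 unshared identifier beside 4.18%. How many runs these shares alone would give was not computed. Whether such neighbours share reads as near-identical copies was not tested.

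The longest run was Ca_14111 to Ca_14115, 5 loci whose FPKM was highest in watered ICC1882 roots. Ca_14111 had 41.4 FPKM in DS(D) and 133 in DS(C), beside 38.5 in DT(D) and 17.3 in DT(C). Ca_14112 had 14.7 FPKM in DS(D) and 90.03 in DS(C), beside 22.4 in DT(D) and 16.0 in DT(C). Ca_14114 had 43.1 FPKM in DS(D) and 195.6 in DS(C), beside 22.4 in DT(D) and 27.7 in DT(C). In each of these the DS(C) value was the highest of the 4 conditions. The same held for Ca_14113, with 15.3 FPKM in DS(D) and 47.2 in DS(C), and for Ca_14115, listed at 0 in DS(D) with 66.6 in DS(C). Another run, Ca_06008 to Ca_06010, was lower in both genotypes, with 12.0 to 69.7 FPKM in DS(D) and 74.0 to 343 in DS(C), and ICC4958 ratios between -3.10 and -1.38.

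**Figure D5:**
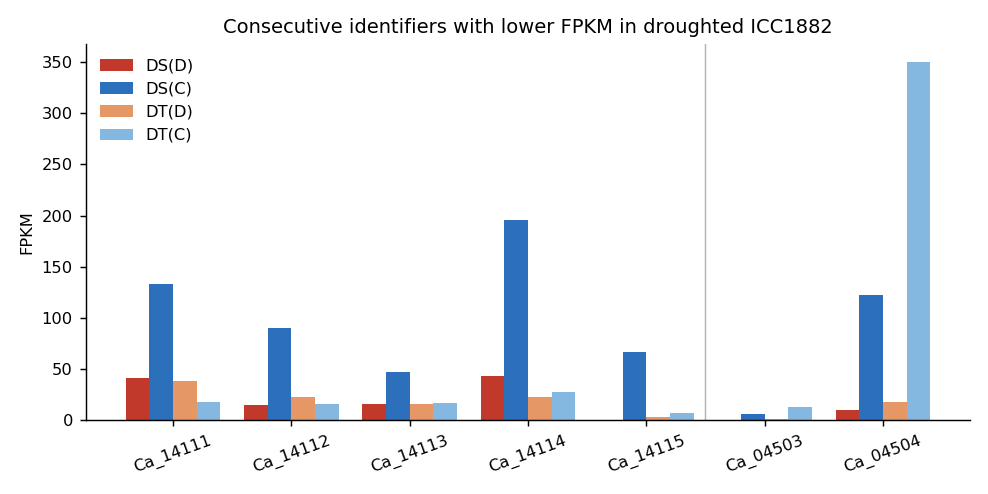
FPKM of the run Ca_14111 to Ca_14115 (left of the grey line) and of the AP2-EREBP gene Ca_04503 and the DREB gene Ca_04504 (right of it), as 1 pooled value per condition. In the run the DS(C) bars, from 47.2 to 195.6 FPKM, are the highest of the 4 conditions, while the DREB pair is high in both controls.

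Loci without an identifier, assembled from the reads outside the annotated genes, had a wider spread of ratios than annotated ones. Among 2902 such loci 20.5% were higher and 14.1% lower, beside 6.11% and 7.92% of the 16649 loci with 1 identifier. After centring the interquartile range of the ratio was 1.202 beside 0.683. Their level was also lower, with a median of 6.37 FPKM in DS(D) beside 15.6, but the range was wider in each of the 10 expression groups. In the highest group it was 1.13 for 116 loci without an identifier beside 0.608 for 1792 loci with 1. The largest value against a 0 belonged to such a locus, XLOC_000008, with 213 FPKM in DS(D) and 0 in DS(C), beside 80.5 in DT(D) and 0 in DT(C). Loci with several identifiers, whose FPKM covers more than 1 annotated gene, had a median ratio of 0.11 and 2.58% were lower.

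The ICC1882 calls were set beside those of ICC4958, which come from other libraries. In ICC4958, 1023 of 20326 expressed loci (5.03%) were higher and 1804 (8.88%) lower. Of the lower loci, 771 were called in both genotypes, which is 44.3% of those of ICC1882 and 42.7% of those of ICC4958. Of the higher loci, 224 were called in both, or 13.6% and 21.9%. The higher ICC1882 loci had a median ratio of 1.38 there and 0.10 in ICC4958, and the lower ones -1.49 there and -0.85 in ICC4958. Opposite calls were given by 170 loci. Of the 1650 higher ICC1882 loci 104 were lower in ICC4958, a smaller share than the 8.88% of all expressed ICC4958 loci. Of the 1741 lower ICC1882 loci 66 were higher in ICC4958, a smaller share than 5.03%. With pooled values the difference between the genotypes could not be tested for any locus.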

How the data were processed

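Root RNA of 8 chickpea libraries, 2 for each of 4 conditions, was sequenced as single-end reads. The authors filtered the reads with NGSQC Toolkit (v2.3.3), mapped them to the kabuli chickpea genome (v1.0) with TopHat2 (v2.1.1), assembled and merged transcripts with Cufflinks (v2.2.1) and Cuffmerge, and deposited FPKM values, 1 per locus and condition, pooled over 2 libraries. The library normalization used is not given in the sources used here. Samples were assigned to conditions from the labels. Log2 ratios without a pseudocount were taken over loci with FPKM of at least 1 in either condition, and called at 1 and -1. Where one of both values was 0, the locus entered the counts by its sign only. Ratios were also centred on the median of 10 groups of mean log2(FPKM + 1). Named loci are the study's listed genes, the 10 with the largest and the 10 with the smallest centred ratio (single identifier, at least 1 FPKM in both conditions and 10 in the higher), leading loci at 0, leading changes in FPKM and loci at the filter. Runs of neighbours and loci without an identifier at 0 were picked after their values were seen. Members and lists were chosen with earlier results of these data known. Gene names are the study's, since none of the identifiers occurs in the symbol table at hand, and 1 gene is not reported here. Pooled values give no precision, so no test was run. Scripts were checked on simulated data and used pandas 2.3.3, numpy 2.4.6 and matplotlib 3.10.9 under Python 3.11.15.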

Additional observations from a re-analysis of the deposited data

Results flagged for a closer look

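Ca_21000 moved in opposite directions in the 2 genotypes. It had 1.75 FPKM in DS(D) and 37.4 in DS(C), so its log2 ratio was -4.42, beside 26.1 FPKM in DT(D) and 6.75 in DT(C), a ratio of 1.95. Each value is pooled over 2 libraries, and the difference between the genotypes was not tested.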

How the results depend on the processing

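No paired analysis was possible because each condition has a single pooled value, and for the same reason no library could be left out in turn. As deposited, 1650 loci were higher and 1741 lower in droughted plants, with 48.7% higher and a median of -0.01. With equal sums these were 4030, 951, 80.9% and 0.46, with equal sums without the 100 most abundant loci 3755, 980, 79.3% and 0.42, and with equal 75th percentiles the share was 62.4% and the median 0.16. The number of higher loci was 919 with a pseudocount of 1, 2883 with no filter, 982 where both conditions reached 1 FPKM, 771 (37.0% higher) with at least 5, and 981 among loci with 1 unshared identifier. At a log2 ratio of 2, 432 were higher and 524 lower. The median ratios of PI signaling, glutathione metabolism, glycolysis, the QTL-hotspot and the PI kinases were 0.79, 0.52, -0.0072, 0.48 and 1.18 with equal sums, and 0.75, 0.49, -0.044, 0.45 and 1.14 without the 100 most abundant loci. They were 0.49, 0.22, -0.31, 0.18 and 0.88 with equal 75th percentiles. Centring within 10 groups gave 0.30, -0.071, 0.26 and 0.54 for glutathione metabolism, glycolysis, the QTL-hotspot and the kinases, and 20 groups gave 0.34, -0.068, 0.28 and 0.49. The kinases were at 0.54 with a pseudocount of 1. The QTL-hotspot median was 0.22 where both conditions reached 1 FPKM, 0.22 with at least 5 and 0.14 among loci with 1 unshared identifier. The median of the lowest expression group was -0.068 with groups made from DS(D), 0.85 with groups made from DS(C) and 0.37 among loci with 1 unshared identifier. The cause of these shifts was not tested beyond the construction of each setting. Of 143 named genes, centring within 10 groups kept the sign of 120 and the side of the threshold of 135, equal sums 117 and 115, and a pseudocount of 1 kept 143 and 141. Depth is not in the table, and the ratios spread most widely in the lowest expression group.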
